A study of Mus musculus with 8 samples.

Results

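Keratin-associated proteins are small proteins rich in cysteine, or in glycine and tyrosine, that pack around the keratin filaments in the shaft of a hair and cross-link them. The 8 genes described here are Krtap1-5, Krtap9-1, Krtap13, Krtap14, Krtap15, Krtap19-5, Krtap28-13 and Krtap5-2. They are 8 of 16 keratin-associated protein genes with a row in the deposited table, and of 6585 named genes in all. Each row was found by its RefSeq accession, without version, and each gene had 1 probe. The 8 genes were selected on an earlier reading of the same ratios of mutant over wild type, in which genes of this family lay low. That ratio is therefore given below as a description, without a test of its own.

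Total skin RNA of mice carrying the near naked hairless mutation, aged 7 days, was hybridized with that of wild type mice of the same age on 8 arrays with 2 colours. Mutant RNA carried Cy5 on arrays 2, 4, 6 and 7 and Cy3 on arrays 1, 3, 5 and 8, with the wild type RNA in the other dye. Near naked hairless is a mutation of the mouse with sparse hair, and no strain, sex or body site is given in the sources used. The design text gives 5 biological replicates of 1 litter without tying animals to arrays, so the arrays counted below as n may share animals. The error over arrays is then in part technical, and p-values are too small.

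In the follicle, matrix cells at the base of the bulb divide and then differentiate upward into the cortex, the cuticle and the medulla of the shaft. Hair keratins are made first, and the keratin-associated proteins follow higher in the forming shaft. Families called high sulfur and ultrahigh sulfur are rich in cysteine, which forms disulfide bonds with the hair keratins. The high glycine-tyrosine families are made of other small proteins of the shaft. In young mice the first coat grows in the days after birth, so that skin of this age holds follicles that are making hair.

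Ratios are log2 of mutant over wild type, so -1 stands for a level in the mutant of 1 part to 2 in the wild type. That direction is only likely: the labels list a sample channel ahead of a control channel, the mutant stands ahead of wild type in the design text, and no source used here states it. The base of the logarithm is taken as 2. Each value is the ratio of 1 spot, and the number of arrays limits its precision. Values were present for 41.3% of rows on array 3, the fewest, and for 88.3% on array 6, the most. Ratios carry no level, so the tissue label could not be checked against its markers. Spreads over all rows were unequal, with SDs from 0.57 on array 5 to 1.60 on array 2.

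Whether the table had already been turned to mutant over wild type on every array bears on every value here. The 232 spots of Gapdh, which carry the same gene, correlated below 0 in all 16 pairs of arrays with opposite dye orientation (median r = -0.45). They correlated above 0 in all 12 pairs with the same orientation (median r = 0.55). The points share the probe and the array design, and these are descriptions without a test. A preference of a spot for a dye changes sign between orientations only in a table that has been turned, and the values were read that way. If the values were Cy5 over Cy3 in place of this, the results would differ, as given where it applies.

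Regions before the gene start are shown because the family lies in dense clusters of like genes and 7 of the 8 genes, all but Krtap9-1, matched an entry among the RefSeq promoters of GRCm38.p6. Krtap13, Krtap14 and Krtap15 are direct neighbours in a cluster of 24 Krtap genes that also holds Krtap19-5. Krtap1-5 and Krtap9-1 lie in a cluster of 23, Krtap5-2 in one of 5, and Krtap28-13 apart. The 250 bases before the start of 3 of the high sulfur genes are given 5′ to 3′ on the strand of the gene, for Krtap1-5 at chr11:99581017-99581266 (minus strand), Krtap14 at chr16:88826146-88826395 (minus strand) and Krtap15 at chr16:88828759-88829008 (plus strand). Capitals mark TATAAA or TATATAA, the TATA box that sets the start of transcription, and CTTTGA, a core of sites for LEF1 and TCF factors, on either strand.
Krtap1-5: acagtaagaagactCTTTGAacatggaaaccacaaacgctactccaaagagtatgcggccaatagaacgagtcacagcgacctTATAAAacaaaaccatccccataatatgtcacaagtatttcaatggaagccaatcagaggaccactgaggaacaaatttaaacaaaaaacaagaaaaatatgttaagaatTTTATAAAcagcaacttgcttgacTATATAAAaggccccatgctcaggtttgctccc
Krtap14: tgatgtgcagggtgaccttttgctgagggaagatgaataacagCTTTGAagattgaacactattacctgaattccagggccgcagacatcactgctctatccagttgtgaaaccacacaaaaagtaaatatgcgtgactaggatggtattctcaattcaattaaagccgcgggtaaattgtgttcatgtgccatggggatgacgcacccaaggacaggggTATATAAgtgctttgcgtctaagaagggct
Krtap15: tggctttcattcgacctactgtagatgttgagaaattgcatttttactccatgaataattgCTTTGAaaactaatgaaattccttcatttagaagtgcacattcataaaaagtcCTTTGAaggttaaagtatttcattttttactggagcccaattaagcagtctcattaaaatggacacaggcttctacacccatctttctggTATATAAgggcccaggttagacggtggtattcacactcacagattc

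The 100 bases before the start of the other 4 genes follow, with TATAAA or TATATAA in capitals. They lie at chr16:88751629-88751728 (minus strand) for Krtap13, chr16:88896450-88896549 (minus strand) for Krtap19-5, chr7:142176006-142176105 (minus strand) for Krtap5-2 and chr1:83060830-83060929 (plus strand) for Krtap28-13.
Krtap13: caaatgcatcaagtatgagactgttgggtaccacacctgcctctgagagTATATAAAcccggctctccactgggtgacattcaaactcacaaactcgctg
Krtap19-5: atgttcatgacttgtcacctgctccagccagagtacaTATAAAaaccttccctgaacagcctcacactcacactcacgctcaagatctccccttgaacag
Krtap5-2: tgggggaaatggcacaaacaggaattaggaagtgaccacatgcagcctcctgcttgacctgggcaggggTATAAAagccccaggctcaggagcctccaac
Krtap28-13: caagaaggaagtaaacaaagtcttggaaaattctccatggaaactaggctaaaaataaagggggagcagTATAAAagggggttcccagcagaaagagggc

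All 7 regions held TATAAA or TATATAA on the strand of the gene, with its first base between 30 and 63 bases before the start. TATATAA was added to the search after these regions were read. Searched on both strands over 300 bases, from 250 before to 50 after the start and with a promoter counted as 1 however many matches it held, 7 of 7 held TATAAA or TATATAA, which may overlap. So did 50 of 51 promoters of all Krtap genes (98.0%) and 15.1% of 32851 promoters in the table. CTTTGA was in 3 of 7, those of Krtap1-5, Krtap14 and Krtap15, against 29.4% of Krtap promoters and 16% of all. TTAAT, one form of the core bound by HOXC13, a homeobox factor of the hair shaft, was in 4 of 7 (Krtap13, Krtap14, Krtap15 and Krtap19-5), against 58.8% of Krtap promoters and 27.1% of all. A match describes the letters of a region and says nothing of binding.

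In whole skin, fewer cells of a type and less RNA per cell cannot be told apart. Of the high sulfur genes, Krtap14 and Krtap15 had only values below 0. Krtap14 stood at -2.71, -0.90, -1.22 and -0.82 on arrays 2, 4, 6 and 7, with mutant RNA in Cy5. It stood at -2.41, -0.58 and -0.47 on arrays 1, 5 and 8, with mutant RNA in Cy3. The orientations overlapped, arrays 1 and 2 were the lowest and array 3 had no value. The mean was -1.30 ± 0.90 (SD, n = 7).

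Krtap15, next to Krtap14 in the genome and read from the opposite strand, stood at -0.90, -1.09, -1.01 and -0.33 on arrays 2, 4, 6 and 7. With mutant RNA in Cy3 it stood at -2.06, -2.95 and -0.48 on arrays 1, 3 and 8. The low values of this gene were those of arrays 1 and 3, while array 2, the lowest for Krtap14, lay among the others. The mean was -1.26 ± 0.93 (SD, n = 7).

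Krtap1-5, also a high sulfur gene, had the single lowest value of the 8 genes. It stood at -4.48, -1.05, -1.51 and -0.68 on arrays 2, 4, 6 and 7, and at -2.19, -1.15 and 0.36 on arrays 1, 5 and 8. Array 8 was the one array above 0, and the value of array 2 lay far under the rest, on the array with the widest spread. The mean was -1.53 ± 1.52 (SD, n = 7), so the SD over arrays was about as large as the mean.

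Krtap13, the fourth high sulfur gene, had values on only 4 arrays and did not go one way. It stood at 1.04 and 1.98 on arrays 6 and 7, with mutant RNA in Cy5, and at -2.50 and -1.24 on arrays 3 and 5, with mutant RNA in Cy3. Its values thus followed the dye, and the mean of -0.18 ± 2.06 (SD, n = 4) describes none of them.

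**Figure D1:**
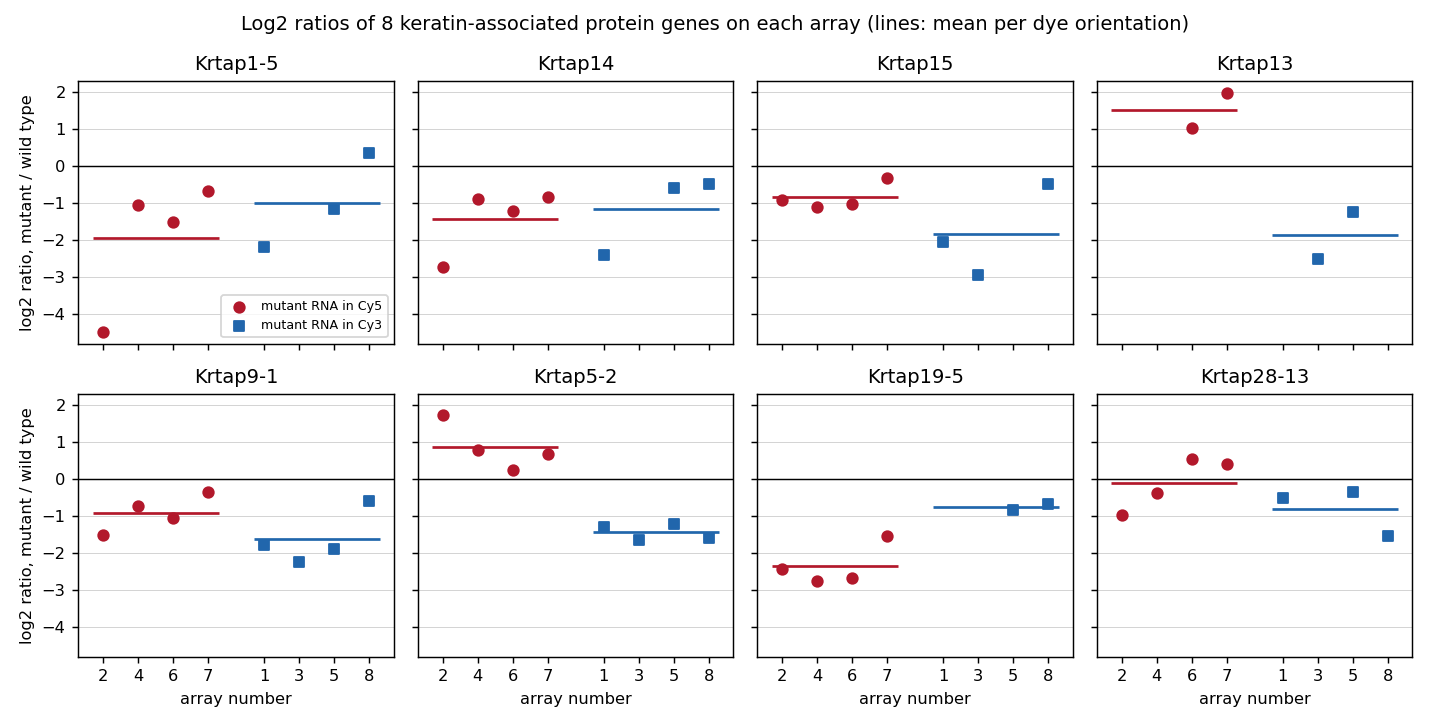
Log2 ratio of mutant over wild type (vertical axis) for each of the 8 genes on each array (horizontal axis, array number), with red circles for arrays with mutant RNA in Cy5, blue squares for arrays with mutant RNA in Cy3 and a line at the mean of each orientation. Krtap14, Krtap15, Krtap9-1 and Krtap19-5 lie below 0 on every array with a value, while Krtap13 and Krtap5-2 lie above 0 in Cy5 and below 0 in Cy3.

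Krtap9-1, an ultrahigh sulfur protein, was below 0 on 8 of 8 arrays and had the smallest SD of the 8 genes. It stood at -1.51, -0.73, -1.05 and -0.35 on arrays 2, 4, 6 and 7, and at -1.77, -2.22, -1.90 and -0.58 on arrays 1, 3, 5 and 8. Arrays 7 and 8 were nearest to 0 and arrays 1, 3 and 5 farthest from it. The mean was -1.26 ± 0.68 (SD, n = 8).

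Krtap5-2, of another ultrahigh sulfur family, did the opposite in the 2 dye orientations. It stood at 1.74, 0.79, 0.24 and 0.68 on arrays 2, 4, 6 and 7, and at -1.30, -1.65, -1.20 and -1.58 on arrays 1, 3, 5 and 8. The orientations did not overlap, and within each the values lay close together, with SDs of 0.63 in Cy5 and 0.22 in Cy3. The mean over all arrays was -0.28 ± 1.30 (SD, n = 8).

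Krtap19-5, a high glycine-tyrosine protein, had the lowest mean of the 8 genes at -1.82 ± 0.93 (SD, n = 6). It stood at -2.43, -2.76, -2.67 and -1.54 on arrays 2, 4, 6 and 7, and at -0.84 and -0.68 on arrays 5 and 8. All 6 values were below 0, and the orientations did not overlap, with the lower values in Cy5, the reverse of Krtap5-2 and Krtap13. The mean of Krtap19-5 thus leans on Cy5, with 4 arrays at a mean of -2.35 against 2 in Cy3 at -0.76. With the orientations weighted equally, as in the fits below, it was -1.55, beside -1.46 for Krtap1-5.

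Krtap28-13, whose protein is not assigned to a class here, stayed nearest to 0 among the genes on 6 or more arrays apart from Krtap5-2. It stood at -0.97, -0.37, 0.56 and 0.42 on arrays 2, 4, 6 and 7, and at -0.50, -0.34 and -1.54 on arrays 1, 5 and 8. Of its 7 values 5 were below 0, the orientations overlapped, and the mean was -0.39 ± 0.73 (SD, n = 7).

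Over the 8 genes and 8 arrays 54 values were present, 45 below 0 and 9 above. Of these 9, Krtap5-2 gave 4, Krtap13 and Krtap28-13 gave 2 each and Krtap1-5 gave 1. Below 0 were 83.3% of the 54 values, against 48.8% of all values of probes. By orientation, 22 of 30 values were below 0 with mutant RNA in Cy5 and 23 of 24 with mutant RNA in Cy3, against 46.5% and 51.7% of all values of probes. If the values were Cy5 over Cy3, 23 of the 54 (42.6%) would be below 0, against 47.3% of all values.

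Because the arrays differed in spread, each value was also ranked among all probes of its array. Of the 54 values 26 (48.1%) lay among the lowest 10% of the probes of their array, 10 of 30 with mutant RNA in Cy5 and 16 of 24 with mutant RNA in Cy3. Read as Cy5 over Cy3, 10 of the 54 would lie among the lowest 10% and 18 among the highest 10%. The median gene of the 8 was undercut by 1.38% of probes on array 1, by 2.68% on array 3, by 2.59% on array 5 and by 6.13% on array 6. On arrays 2 and 4 it was undercut by 15.4% and 15.8%. On arrays 7 and 8 the 8 genes stood least apart, with medians undercut by 28.9% and 25.8% of probes.

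By rank, Krtap1-5 (median 2.59% of probes lower) and Krtap19-5 (4.62%) lay farthest down, and Krtap9-1 was undercut by at most 28.5%. Krtap14 ranged from 0.54% to 31.2% and Krtap15 from 0.99% to 30.9%. Krtap5-2 ranged from 2.25% to 88.9%, and Krtap13 reached 99.8% on array 7, among the highest ratios of that array.

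**Figure D2:**
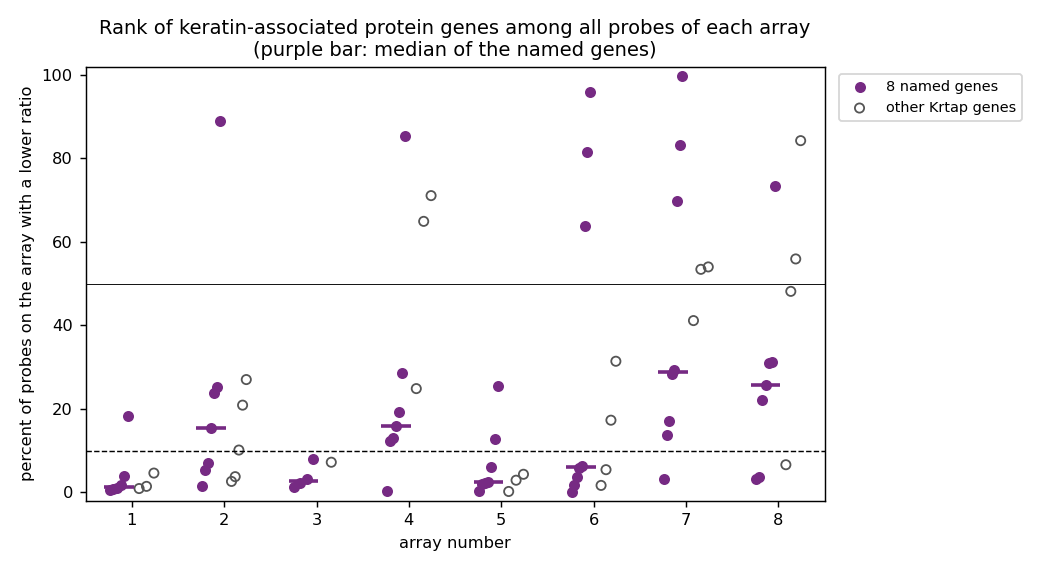
Percent of probes on each array with a lower ratio than the gene (vertical axis, a low value is a low ratio) by array number (horizontal axis), with filled points for the 8 genes, open points for other Krtap genes, a purple bar at the median of the 8 and a dashed line at 10%. The medians lie between 1.38% on array 1 and 28.9% on array 7.

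The replicate spots of Gapdh, the gene of a glycolytic enzyme, show how far spots of 1 probe scatter on an array. Of the 54 values 38 lay below the central 95% of the Gapdh spots of the same array, 14 within it and 2 above it. Of the values of all other probes 26.3% lay below it, 58.5% within it and 15.2% above it. The Gapdh spots were themselves off 0, with the whole range above 0 on array 4 (0.12 to 0.92), where 49.7% of other probes lay below it. On array 7, where the spots scattered most (SD 0.91), 0 of 8 genes and 2.6% of other probes lay below the range. Whether the spots of the 8 genes are as bright as those of Gapdh is not known here, since intensities were not analysed.

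A fit of 3779 genes, each with 3 or more values in each orientation, held 6 of the 8 genes, with the ratio and a dye difference as terms (limma). Krtap13 and Krtap19-5 had too few values to enter it. The fitted ratios of the 6 were -1.46 ± 0.44 for Krtap1-5, -1.33 ± 0.28 for Krtap15, -1.28 ± 0.30 for Krtap14, -1.26 ± 0.22 for Krtap9-1, -0.44 ± 0.25 for Krtap28-13 and -0.28 ± 0.19 for Krtap5-2 (SE). As folds these were 2.76, 2.51, 2.43, 2.40, 1.36 and 1.22 lower in the mutant.

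The 95% intervals of the first 4 in that order overlapped widely, so their order is not settled. That of Krtap9-1 ran from -1.74 to -0.79, and those of Krtap28-13 (-0.99 to 0.11) and Krtap5-2 (-0.70 to 0.14) included 0. The median of the 6 was -1.27, against 0.05 over all 3779 genes, of which 44.7% were below 0. Of the 6, Krtap9-1, Krtap14 and Krtap15 were past the threshold of the fit on the low side and 0 on the high side. Over all genes 2.8% were called lower and 0.662% higher, and since the genes were chosen on this contrast nothing is read from the comparison.

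Read as Cy5 over Cy3, the ratios would be -0.47 for Krtap1-5, -0.13 for Krtap14, 0.35 for Krtap9-1, 0.50 for Krtap15, 0.35 for Krtap28-13 and 1.15 for Krtap5-2. With 1 array left out at a time, the ratios lay between -1.44 and -1.16 for Krtap9-1, -1.45 and -0.97 for Krtap14, -1.67 and -1.05 for Krtap15 and -1.80 and -1.04 for Krtap1-5. The small ratios moved more for their size, to -0.25 for Krtap28-13 without array 8 (-0.13 with arrays weighted by quality) and to -0.18 for Krtap5-2 without array 6. With arrays 4 to 8 alone the median of 6 genes was -0.75, where Krtap19-5 had enough values to enter and Krtap15 did not. Arrays 1 to 3 had the fewest values and carried the larger ratios, with a median of -2.06 over 17 values of the 8 genes, against -0.73 over 37 values on arrays 4 to 8.

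With a looser filter of 2 arrays of each orientation, 5626 genes were fitted and the remaining 2 genes had a value. Of the 8, those past the threshold were then Krtap9-1, Krtap15 and Krtap19-5, and no longer Krtap14. Krtap19-5 stood at -1.55 ± 0.25 (SE, 6 arrays, 95% interval -2.11 to -1.0). Krtap13 stood at -0.18 ± 0.33 (SE, 4 arrays, -0.96 to 0.61).

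**Figure D3:**
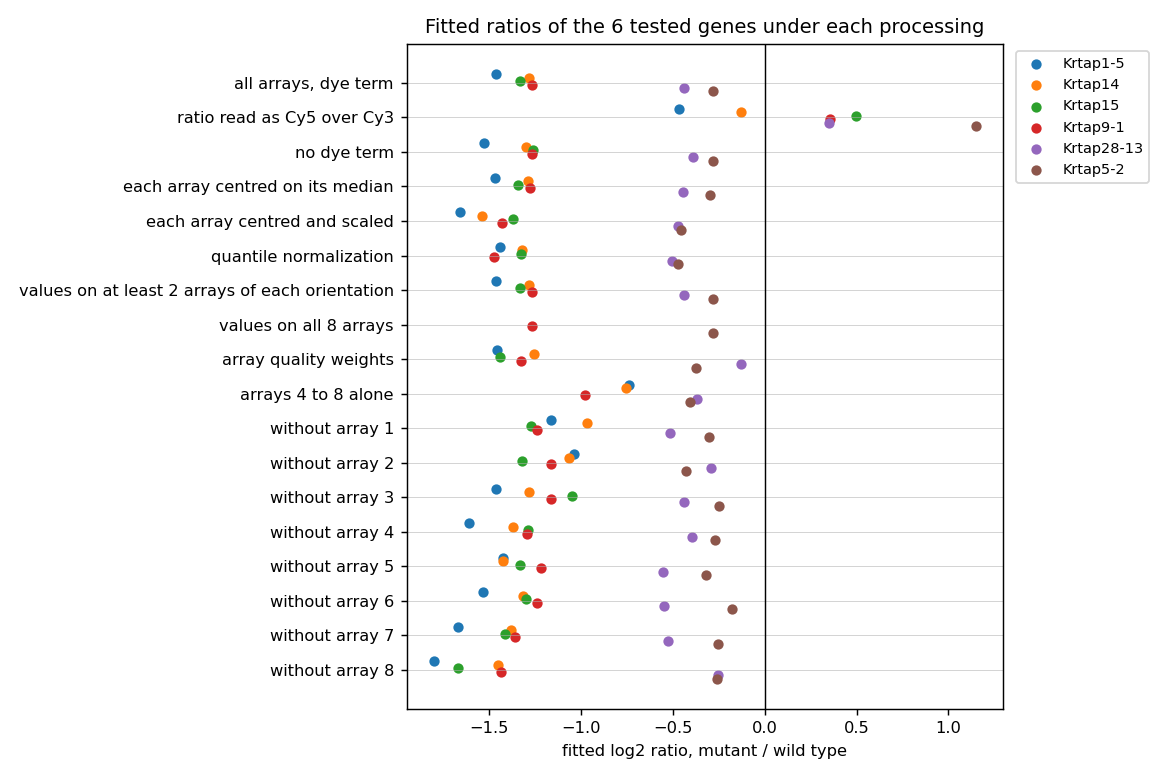
Fitted log2 ratio (horizontal axis) of the 6 genes tested with all arrays, under each processing (rows), 1 colour for each gene. Krtap1-5, Krtap14, Krtap15 and Krtap9-1 lie left of 0 in every row in which they have a value except that of Cy5 over Cy3, where Krtap9-1 and Krtap15 lie right of it.

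The dye difference, the ratio with mutant RNA in Cy5 minus that with mutant RNA in Cy3, was not used to choose the genes and was tested. It was 2.30 ± 0.39 for Krtap5-2 (SE, 95% interval 1.46 to 3.14, limma adjusted p = 0.0286), and its 4 values in Cy5 lay above all 4 in Cy3. Over all genes 1.64% had a dye difference above 0 past the test, and 1 of the 6 genes did. This call was lost without any 1 of arrays 1 to 7, at adjusted p from 0.0599 to 0.0955, while the difference stayed between 2.00 and 2.51. It was also lost with the looser filter (adjusted p = 0.0522) and with arrays 4 to 8 alone (1.96, adjusted p = 0.428). The call held with centring, scaling, quantile normalization, array weights, values on all 8 arrays and without array 8 (limma adjusted p from 0.00153 to 0.0331). Read as Cy5 over Cy3, all 8 values of Krtap5-2 would lie above 0 and the difference would be -0.57 (adjusted p = 0.443). For Krtap13 the looser filter gave 3.38 ± 0.67, with an adjusted p of 0.0872.

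For the remaining genes the dye difference did not pass. It was 0.99 for Krtap15 (95% interval -0.22 to 2.21), 0.71 for Krtap9-1 (-0.24 to 1.65), 0.70 for Krtap28-13 (-0.39 to 1.79), -0.26 for Krtap14 (-1.60 to 1.08) and -0.94 for Krtap1-5 (-2.88 to 1.0). Under the looser filter that of Krtap19-5 was -1.59 ± 0.49 (adjusted p = 0.116). Each of the 5 intervals from the fit of 3779 genes ended below the 2.30 of Krtap5-2 and included 0. Whether these dye differences differ from that of Krtap5-2 was not tested.

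**Figure D4:**
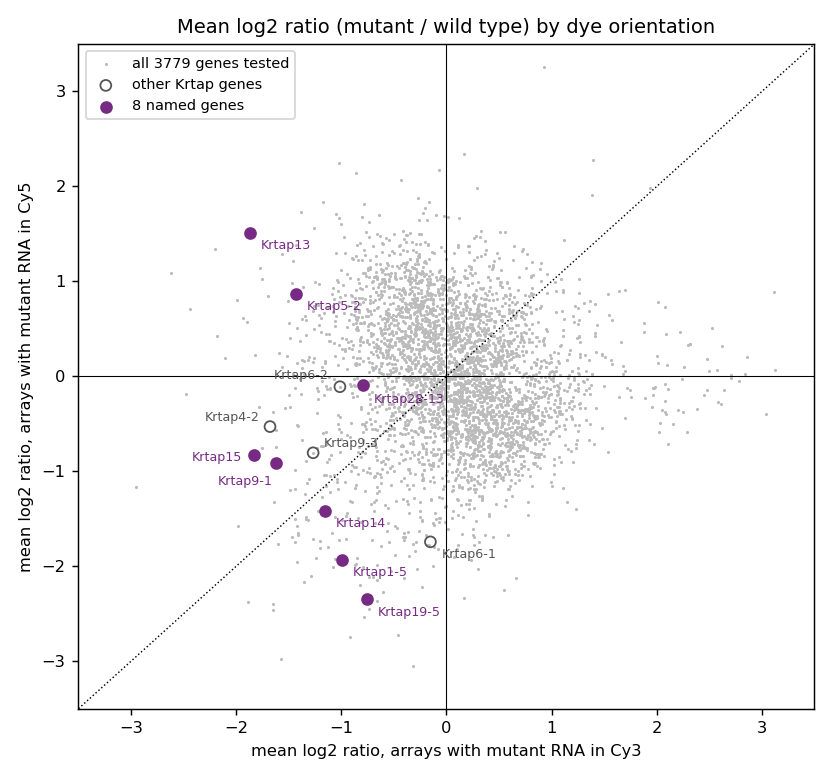
Mean log2 ratio on arrays with mutant RNA in Cy5 (vertical axis) against that on arrays with mutant RNA in Cy3 (horizontal axis), with grey points for the 3779 genes tested, filled points for the 8 genes and open points for other Krtap genes with values in both orientations. All 8 lie left of 0, Krtap13 and Krtap5-2 lie above 0 on the vertical axis, and the other 6 lie below 0 on both axes.

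The other 8 Krtap genes of the table were measured less often, with values on a median of 3 arrays, against 7 for the 8 genes and 6 for all probes. Krtap5-1, Krtap5-4 and Krtap4-13, ultrahigh sulfur genes, had no value on any array, and Krtap12-1 had 1, of -3.17 on array 2. Of their 26 values 21 were below 0 (80.8%), against 83.3% for the 8 genes. A probe may also bind RNA of a like member of this family, so each value is uncertain as to the gene, and the sequences of the probes were not used here.

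Krtap9-3, of the same family as Krtap9-1, stood at -2.01, 0.39, -1.52 and -0.08 on arrays 2, 4, 6 and 7, and at -1.86, -1.92 and -0.02 on arrays 1, 5 and 8. It was above 0 on array 4 alone, where Krtap9-1 stood at -0.73. Its fitted ratio was -1.04 ± 0.34 (SE, limma adjusted p = 0.120).

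Krtap6-2, a high glycine-tyrosine gene, had a fitted ratio of -0.56 ± 0.21 (SE, 8 arrays, limma adjusted p = 0.180), with 6 arrays below 0. Neither of these 2 genes passed. Krtap4-2 had a mean of -0.99 ± 0.82 (SD, n = 5) with 4 arrays below 0, and Krtap6-1 one of -1.11 ± 1.62 (SD, n = 5) with 4 below 0. By class, the median value was -1.05 for the 4 high sulfur genes among the 8, -1.13 for the 2 ultrahigh sulfur genes and -1.98 for Krtap19-5. Among the other Krtap genes it was -1.21 for 2 ultrahigh sulfur and -0.81 for 2 high glycine-tyrosine genes. These medians pool values over genes and arrays and hide differences within a class. The 2 ultrahigh sulfur genes had medians of -1.28 (Krtap9-1) and -0.48 (Krtap5-2, split by dye). Krtap13, among the high sulfur genes, was split by dye as well.

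Genes that act beside these proteins in the follicle were read from lists. The lists were chosen with earlier results of these data known, so their calls are descriptions and lend no separate support. Of 16 hair shaft keratins 4 had a row and 3 were tested, of which 1 was lower and 0 higher. This was Krt31, an acidic keratin of the hair cortex, at -1.27 ± 0.23 (SE, limma adjusted p = 0.0133). Its values were -1.48, -0.67, -1.13 and -2.35 on arrays 2, 4, 6 and 7 and -1.48, -1.10 and -0.83 on arrays 3, 5 and 8. It was below 0 on 7 of 7 arrays and lowest on array 7, where the 8 genes stood least apart. Krt35, a keratin of the matrix and cortex, stood at 0.63 ± 0.42 and did not pass. Its value of 4.83 on array 8 decided that mean: the median was -0.01 with 4 of 8 arrays below 0, and the mean over orientations was 0.11 without array 8. Krt33a, the remaining hair keratin tested and outside the rule for naming, stood at -0.58 ± 0.22 with 6 of 7 arrays below 0 (adjusted p = 0.184).

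Of 7 tested genes of the cuticle, the medulla and their enzymes, 1 was lower and 0 higher. Crym, a protein that binds thyroid hormone, had values from -1.71 to -0.47 with a median of -1.07, all 8 below 0. Its fitted ratio was -1.02 ± 0.19 (SE, limma adjusted p = 0.0117), and like Krt31 it was lowest on array 7. Tgm3, a transglutaminase that cross-links proteins of the shaft and its sheath, stood at -0.36 ± 0.29 and did not pass.

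Of 5 tested genes of the inner root sheath, which encloses the growing shaft, 1 was lower and 0 higher. Krt71 stood at -0.79 ± 0.18 (SE, 8 of 8 arrays below 0, limma adjusted p = 0.0362) and Krt27 at -0.77 ± 0.21 (5 of 8 below 0, adjusted p = 0.0648). The values of Krt27 followed the dye. They were -1.40, -2.08, -1.27 and -1.37 on arrays 2, 4, 6 and 7, and 0.29, 0.62, 0.01 and -0.95 on arrays 1, 3, 5 and 8. Its dye difference was -1.52 (limma adjusted p = 0.0626). Both Krt71 and Krt27 are keratins of the sheath.

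Of 21 tested regulators of hair shaft formation 2 were lower and 0 higher. Ovol2, a zinc finger factor of epithelia, stood at -1.54 ± 0.27 (SE, 6 of 7 arrays below 0, limma adjusted p = 0.0123), and Fgf5, which ends the growth phase of hair, at -1.11 ± 0.20 (7 of 7 below 0, adjusted p = 0.0133). The 2 orientations of Ovol2 did not overlap. With mutant RNA in Cy5 it stood at -2.27, -1.62 and -3.11 on arrays 2, 6 and 7. With mutant RNA in Cy3 it stood at -1.31, 0.50, -0.78 and -1.36 on arrays 1, 3, 5 and 8. The dye difference of Ovol2 was -1.60 (limma adjusted p = 0.0902). Foxn1 and Lef1, named for their known part in hair shaft genes and outside the rule for naming, stood at 0.47 ± 0.17 (adjusted p = 0.163) and 0.03 ± 0.21 (adjusted p = 0.952). The ratio of Foxn1 averages values of opposite sign. They were 1.70, 0.70, 0.85 and 0.92 on arrays 2, 4, 6 and 7, and -0.13, -0.04, -0.10 and -0.11 on arrays 1, 3, 5 and 8. The median of the 21 was 0.06, against 0.05 for all genes. Over the 34 tested genes of the 4 hair lists 5 were called (Krt31, Crym, Krt71, Ovol2 and Fgf5), all lower. Among all 3779 genes 2.8% were called lower and 0.662% higher. Under other processing the count was taken over these lists and the other Krtap genes together. For that set it was 5 in the fit reported (14 at an unadjusted p under 0.05 in limma). With arrays 4 to 8 alone, where 2 values in each orientation sufficed, it was 0 (10 unadjusted). It was 2 without array 1 and 3 without array 5, 6 or 7. Read as Cy5 over Cy3 it was 0 (11 unadjusted).

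**Figure D5:**
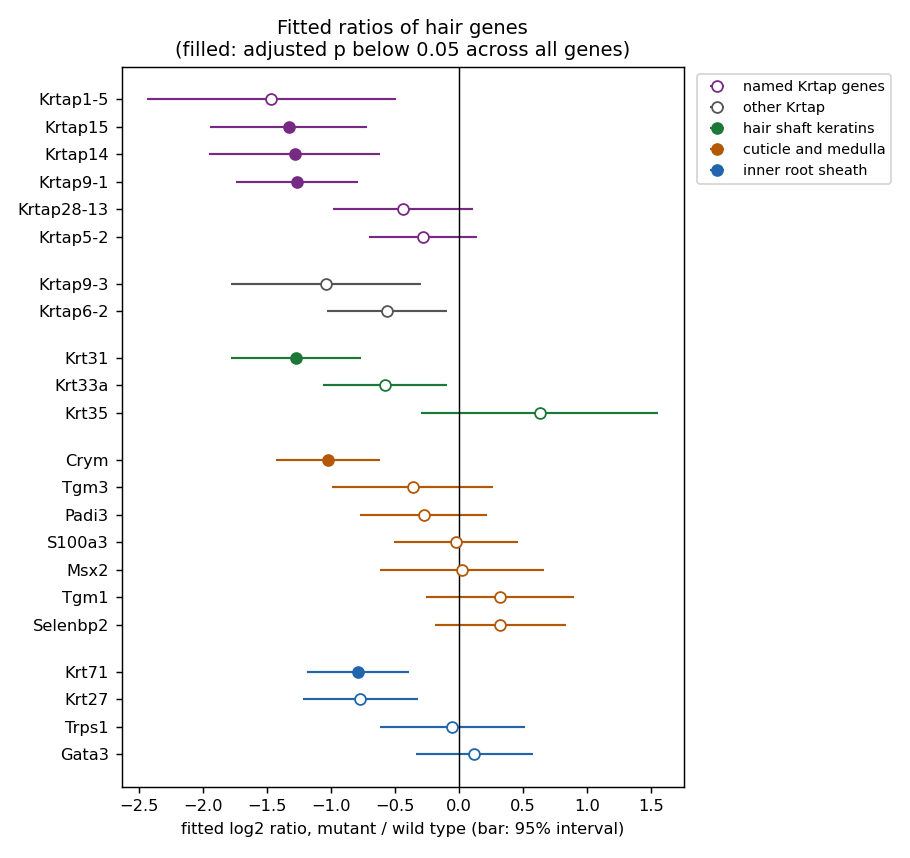
Fitted log2 ratio of mutant over wild type with its 95% interval (horizontal axis) for tested Krtap genes, hair shaft keratins, cuticle and medulla genes and inner root sheath genes (rows), with filled points past the threshold across all 3779 genes. Of the 6 tested genes of the 8, 4 have intervals wholly below 0, and Krt31, Crym and Krt71 are filled in their groups.

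Markers of other cell types, from lists chosen in the same way, were set beside the 8 genes. Over all genes 2.8% were called lower and 0.662% higher. Of 10 tested fibroblast genes 8 were above 0, 2 of them past the test (Fbn1 and Vim, with 6 of the 10 unadjusted). The median of the 10 lay between 0.11 and 1.35, above 0 on all 8 arrays. Both genes past the test split by dye without overlap. Fbn1 stood at 1.97, 1.33, 0.86 and 1.40 on arrays 2, 4, 6 and 7. On arrays 1, 3, 5 and 8 it stood at 0.07, -0.27, -0.02 and 0.64. In the same order Vim stood at 0.90, 0.21, 0.27 and 0.47, and at 1.48, 2.37, 2.27 and 1.40. The 5 tested adipocyte genes went both ways: Cfd passed at 1.96, Car3 stood at -0.86 with 7 of 7 arrays below 0 (adjusted p = 0.0667), and Lep, Lpl and Retn stood between 0.07 and 0.43. Their median was above 0 on 7 arrays and at -0.03 on array 2. Of 4 tested genes of basal keratinocytes 2 were below 0 and 2 above, and 0 passed in limma (0 at an unadjusted p under 0.05), with array medians from -0.68 to 0.42. Suprabasal keratinocyte genes had 3 of 5 tested above 0 and 2 below, and Krt1 passed on the high side (3 unadjusted). Late cornified envelope genes had 9 of 11 tested above 0 and 2 below, with a median of 0.56, and Lce1e passed on the high side (8 unadjusted). Of 6 tested nerve genes 5 were below 0 and Mbp, a myelin protein, passed at -0.90 (adjusted p = 0.0342). The nerve median was -0.25 over the genes, and by array it was below 0 on 7 of 8 arrays, where that of the 8 Krtap genes was below 0 on all 8. Of 12 tested immune genes 4 were below 0, with C1qb lower at -1.37 (adjusted p = 0.0141) and Mcpt2 higher at 1.05 (adjusted p = 0.00991). Of other cells in and near the follicle, 0 of 4 tested dermal papilla genes, 0 of 7 melanocyte genes and 0 of 9 sebocyte genes passed in limma (1, 0 and 3 at an unadjusted p under 0.05). The 4 dermal papilla genes were all above 0, with a median of 0.34. Above 0 were also 4 of the 7 melanocyte genes and 4 of the 9 sebocyte genes. Among 2 tested muscle genes and 5 of vessels and blood 0 passed (1 and 2 unadjusted). The part of any of these cells in the low ratios was not tested.

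The genes with the pattern most like the 8 were sought among 2972 genes with values on at least 7 arrays, by the root mean square difference from the median of the 8 genes over arrays. The smallest were those of Gabrd, a receptor subunit for the transmitter GABA (0.28), Galk1, galactokinase (0.31), Nr2f6, an orphan nuclear receptor (0.39), Slc35a1, a transporter of sialic acid donors (0.41), and Sprr1b, a protein of the cornified envelope (0.41). The median over all 2972 genes was 1.63. Gabrd stood at -2.25 on array 1 and -1.67 on array 2 and reached -0.41 on array 8, below 0 on 7 of 7 arrays. Of these 5, 4 had no value on array 3 (all but Nr2f6), where the median of the 8 genes was lowest, so the differences were taken over unequal sets of arrays. No Krtap gene and no hair keratin was among the 5, and the nearest were Krt33a at rank 32 (0.62) and Krtap9-3 at rank 43 (0.67). Likeness here is a description over at most 8 arrays.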

How the data were processed

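Per the labels, dyes were coupled and hybridized by standard protocols. The authors deposited log ratios of both channels, taken here as log2 values. Why values are missing, how images were read and normalized, and the base and direction of the logarithm is information not given in the sources used here. The table held 23232 rows, of which 21997 were probes, and 864 blank, 275 buffer and 96 Alien control spots were left out. RefSeq accessions named 6747 rows and synonyms 77, by a table of GRCm38.p6 used for names and neighbours. Probes of a gene were averaged. Genes with values on at least 3 of 4 arrays of each orientation were fitted in limma 3.58.1 (R 4.3.3) with 1 coefficient for the ratio and 1 for the dye, with Benjamini-Hochberg adjustment over all genes at 0.05. The fit was run on simulated data, with independent noise, no dye difference and effects larger than the fitted ratios of the 8 genes. That run is a check of the code and not of the calls. Arrays are the n, and intensities were not analysed. The 8 genes and all lists were chosen with earlier results of these data known. Named were all Krtap genes, list genes past the threshold or of the largest ratio up to 2 in a list, and the 5 most alike. Alternatives covered direction, dye term, centring, scaling, quantile normalization, missing values, array weights and arrays left out. Promoters came from RefSeq (GRCm38.p6).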

Additional observations from a re-analysis of the deposited data

Results flagged for a closer look

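Krtap5-2 gave ratios of opposite sign between arrays with mutant RNA in Cy5 and those with it in Cy3, and the test of the difference between the orientations passed (2.30, limma adjusted p = 0.0286). Read as Cy5 over Cy3 all 8 values would have 1 sign, and the difference would be -0.57 (adjusted p = 0.443). Krtap13 did so as well, with a difference of means of 3.38 on 2 arrays each. That difference was not tested in the fit of 3779 genes, and the looser filter gave an adjusted p of 0.0872. In the reading used, for both genes the ratio of mutant over wild type rests on an average of values of opposite sign. Dixon's test singled out 0 arrays in 13 sets of values, and 0.65 would come by chance.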

How the results depend on the processing

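Read as Cy5 over Cy3, the median of the tested genes turned to 0.35, Krtap9-1 to 0.35 and Krtap15 to 0.50. Under that reading 66 genes were called, against 131, with 0 of the 8 genes lower, 0 hair genes outside them and 3 genes past the test of the other term. Hair genes here are those of the 4 hair lists and the other Krtap genes. Without a dye term 64 genes, 1 of the 8 and 3 hair genes were called. Scaling called 212 genes, quantile normalization 360 (225 lower, 135 higher) with 9 hair genes, and array weights 428 with 10 hair genes and 2 dye differences, while 4 of the 8 were lower in each of these 3. Lower calls were 62.5% of all under quantile normalization, 66.6% with array weights and 80.9% in the fit reported. Values on all 8 arrays left 81 calls, 1 of the 8 and 3 hair genes. At least 2 arrays of each orientation put Krtap19-5 in place of Krtap14 among 3 calls and gave 0 dye differences (3 of the 8 at an unadjusted p under 0.05 in limma). Arrays 4 to 8 alone gave 0 genes (740 unadjusted), 0 of the 8, 0 dye differences (2 unadjusted) and 0 hair genes. Without 1 array the calls ran from 53 (array 1) to 130 (array 8), those of the 8 genes from 1 to 3 (Krtap9-1 in each; Krtap14 and Krtap15, where a value of theirs was dropped, only without array 8), dye differences from 0 to 2, hair genes from 2 to 6 and the median from -1.45 to -1.05. Centring on the median kept all counts within 1.5 times. Causes were not tested. No paired analysis was possible because the arrays form 1 group of ratios and are not tied to animals.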
